A study of Mus musculus with 36 samples.

Results

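Bone morphogenetic proteins (BMPs), myostatin and the secreted proteins that hold them back were followed as a group of 10 genes in the tibialis anterior (TA) and soleus of wild-type (WT) and ∆Ig3-MuSK mice. The members were 6 ligand genes (Bmp2, Bmp4, Bmp5, Bmp6, Mstn and Gdf11) and 4 antagonist genes (Fst, Fstl3, Grem1 and Chrdl1), found by Ensembl ID in the count tables of both muscles. All 10 were present among the 51912 gene IDs. The study compared RNA-seq of whole muscle from 3-month-old C57BL/6 mice, with 9 libraries for each pairing of muscle and genotype and 36 in all. ∆Ig3-MuSK animals carry a germline deletion of the Musk exons that encode the third immunoglobulin-like domain of MuSK, the domain that binds BMPs, and the allele was backcrossed to C57BL/6. The deletion is present in every cell of the animal, and the allele was made by genome editing. WT animals carry the intact gene, and no group received a treatment. The TA is mostly made of fast fibers, whereas the mouse soleus is rich in slow fibers.

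BMPs and myostatin belong to the TGF-β superfamily of secreted ligands, which are made as precursors, cut by proteases and bound by pairs of type I and type II serine/threonine kinase receptors. BMP receptors pass the signal to SMAD1, SMAD5 and SMAD8, and the myostatin and activin receptors pass it to SMAD2 and SMAD3. In skeletal muscle, myostatin is the classic brake on muscle mass, while BMP signaling favors muscle growth. Antagonists act outside the cell. Among their targets are activins, myostatin and GDF11 for follistatin (Fst) and follistatin-like 3 (Fstl3), and BMPs for gremlin 1 (Grem1) and chordin-like 1 (Chrdl1). MuSK, best known as the receptor kinase of the neuromuscular junction, also acts as a BMP co-receptor.

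The libraries held between 43492062 and 78660422 counts on genes. Levels are given as CPM, the counts scaled to a common library size, on 1 scale across the 36 libraries. The labels of the muscles matched their defining genes: Myh7, the slow myosin heavy chain, had a mean of 6.60 CPM in WT TA and 8473 CPM in WT soleus, and Myh4, the fast IIb myosin, had a mean of 19210 CPM in WT TA and 1677 CPM in WT soleus. Musk itself lay at 4.25 ± 0.95 CPM (SD, n = 9) in WT TA, 3.09 ± 0.39 in ∆Ig3-MuSK TA, 15.2 ± 1.82 in WT soleus and 11.3 ± 3.29 in ∆Ig3-MuSK soleus. These counts sum all exons of the gene and therefore do not show the deleted ones by themselves. WT soleus replicates 1 and 2 stood apart by their fast fiber markers (9 genes, summed CPM of 43783 and 40584, against 19973 to 28956 in the other 7 WT soleus libraries). ∆Ig3-MuSK soleus replicate 8 had the lowest sum of 6 tendon cell markers of any library (24.4 CPM) and of 8 fibroblast markers (336 CPM). In whole-muscle RNA, fewer cells of a type and less RNA per cell cannot be told apart.

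Levels of different genes were compared per kilobase (kb) of exon, since longer transcripts yield more counts. Genes on the opposite strand overlap 1878 of 4025 exon bases of Bmp5 and 1157 of 2445 of Fstl3. How reads there were counted is not known, so the levels per kb of these 2 genes and their places in the order are uncertain. By full exon length, myostatin led the order in WT TA with 6.33 ± 1.09 CPM per kb (SD, n = 9), and no other member reached its lowest library of 4.71. Next came Bmp6 (3.52 ± 0.54), Bmp5 (3.01 ± 0.26), Gdf11 (2.38 ± 0.34) and Bmp4 (1.96 ± 0.28 CPM per kb), and the ranges of neighbours overlapped within this series. A gap without overlap then separated these ligands from Fst (0.71 ± 0.09), Bmp2 (0.51 ± 0.11), Fstl3 (0.41 ± 0.12) and Chrdl1 (0.24 ± 0.05 CPM per kb). Antagonist transcripts and Bmp2 were thus the scarce members of the group in the TA. ∆Ig3-MuSK TA held Mstn in first place at 6.09 ± 1.29 CPM per kb and Bmp6 in second at 4.06 ± 0.62, with overlapping ranges there.

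The soleus had another order, with the same limit on Bmp5 and Fstl3. Bmp6 was first in WT soleus at 4.53 ± 0.56 CPM per kb (SD, n = 9) and in ∆Ig3-MuSK soleus at 4.10 ± 0.39, and in both its range lay above that of every other member. Bmp4 was second, at 1.95 ± 0.38 and 1.97 ± 0.52 CPM per kb. Bmp5 and Fst followed, with overlapping ranges, and Mstn dropped to the eighth place in WT soleus (0.53 ± 0.36) and to the sixth in ∆Ig3-MuSK soleus (0.62 ± 0.22 CPM per kb). Bmp2, Fstl3, Gdf11, Mstn and Chrdl1 formed a run in which each range overlapped that of its neighbour in the order. Grem1 was last in all groups.

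**Figure D1:**
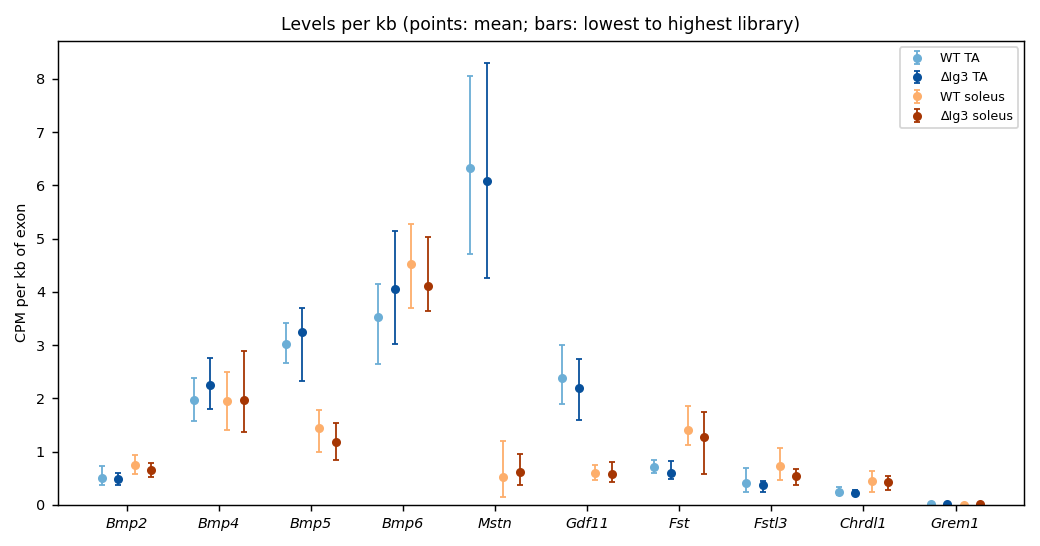
Level of each member per kb of exon (CPM per kb, linear axis) in the 4 groups; points are means of 9 libraries and bars reach from the lowest to the highest library. Mstn has the highest mean in the TA (6.33 in WT) and falls among the scarce members in the soleus (0.53 in WT), where Bmp6 leads with 4.53. Places of Bmp5 and Fstl3 are uncertain, since genes on the opposite strand overlap much of their exons.

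Comparison of the muscles asked which ligands and antagonists differ between a fast and a slow muscle. Mstn, Gdf11 and Bmp5 were lower in the soleus, and Fst, Fstl3, Chrdl1 and Bmp2 were higher, in WT as well as in ∆Ig3-MuSK animals. In WT, 8 of the 9 members tested were called (5 higher, 3 lower in the soleus), where a call needed a 1.2-fold difference or more and p under 0.05 in edgeR's quasi-likelihood test after Benjamini-Hochberg adjustment over 20841 genes. Over all genes tested 57.5% were called in WT, 30.2% higher and 27.3% lower, so that a call by itself does not set a member apart. In ∆Ig3-MuSK, 7 of 9 members were called (4 higher, 3 lower), against 56.1% of all genes, 28.5% higher and 27.6% lower. Median log2 fold changes of the 9 members were 0.36 in WT and 0.013 in ∆Ig3-MuSK, beside 0.018 and -0.0013 over all genes. Soleus libraries were made with the NEBNext Ultra kit and TA libraries with NEBNext Ultra II per the labels, so kit and muscle cannot be told apart in this comparison.

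**Figure D2:**
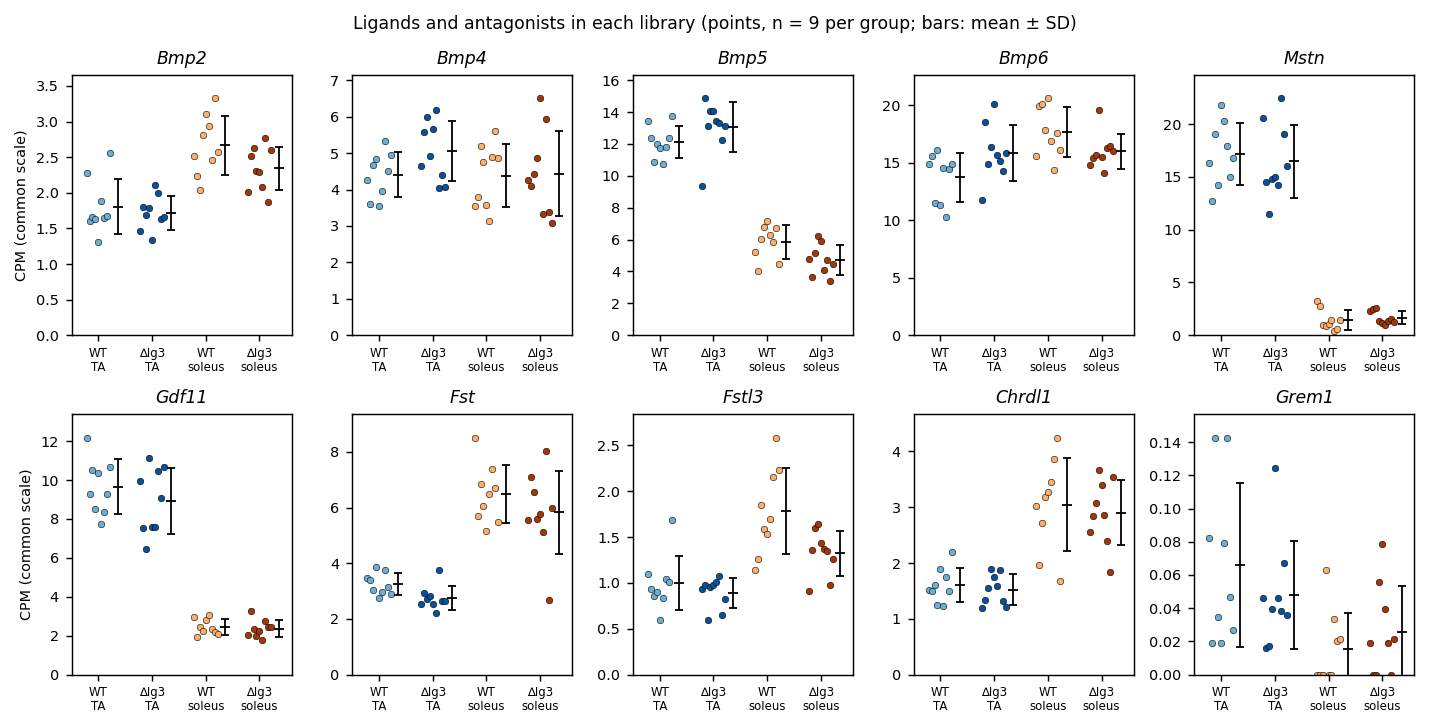
CPM of each member in every library (points, linear axis from 0; n = 9 per group), with the group mean ± SD as a bar. Mstn, Gdf11 and Bmp5 form separate TA and soleus clusters, Fst and Chrdl1 sit higher in the soleus, and Grem1 stays below 0.15 CPM in every library.

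Mstn (ENSMUSG00000026100, GRCm38 chr1:53061640-53068079, + strand) encodes myostatin. Its level lay between 12.7 and 21.8 CPM in WT TA (median 16.8) and between 0.37 and 3.21 CPM in WT soleus (median 1.11). In ∆Ig3-MuSK animals it lay between 11.5 and 22.5 CPM in the TA (median 14.99) and between 0.99 and 2.59 CPM in the soleus (median 1.33). Not 1 soleus library reached the lowest TA library in either genotype. The log2 fold change of soleus against TA was -3.61 ± 0.24 (SE) in WT, that is 12.2-fold lower (adjusted p = 7.17e-16), and -3.29 ± 0.24 in ∆Ig3-MuSK, 9.78-fold lower (adjusted p = 5.23e-15).

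Gdf11 (ENSMUSG00000025352, chr10:128882295-128891718, - strand) encodes the closest relative of myostatin, which shares its receptors. It lay between 7.74 and 12.2 CPM in WT TA (median 9.30) and between 1.92 and 3.05 CPM in WT soleus (median 2.34). ∆Ig3-MuSK TA libraries spanned 6.45 to 11.1 CPM (median 9.10) and soleus libraries 1.77 to 3.27 CPM (median 2.35). Again the muscles did not overlap. Gdf11 was 3.95-fold lower in WT soleus (log2 fold change -1.98 ± 0.11 SE, adjusted p = 8.36e-18) and 3.78-fold lower in ∆Ig3-MuSK soleus (-1.92 ± 0.11, adjusted p = 2.45e-17). The longest identical run between any pair of member transcripts was 23 bases, between Bmp5 and Bmp6, so Mstn and Gdf11 reads can be told apart by sequence.

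Bmp5 (ENSMUSG00000032179, chr9:75775364-75900310, + strand) encodes a BMP of the Bmp5, Bmp6 and Bmp7 subgroup. It lay between 10.7 and 13.8 CPM in WT TA (median 12.0) and between 4.01 and 7.18 CPM in WT soleus (median 6.03). ∆Ig3-MuSK libraries spanned 9.35 to 14.9 CPM in the TA (median 13.3) and 3.41 to 6.21 CPM in the soleus (median 4.72). Bmp5 too had no overlap between muscles and was 2.08-fold lower in WT soleus (log2 fold change -1.06 ± 0.10 SE, adjusted p = 1.44e-11) and 2.77-fold lower in ∆Ig3-MuSK soleus (-1.47 ± 0.10, adjusted p = 2.77e-15). The antisense gene Gm26903 overlaps 1878 bases of the 4025 bases of Bmp5 exons, and in libraries without strand information reads there cannot be assigned to either gene.

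The regions before the start sites of the 3 members that were lower in the soleus are shown here because these genes moved together, with Fstl3 beside them as a member that moved the other way. RefSeq promoter entries (GRCm38.p6) matched 7 of the 10 members, and the 250 bases before the start are printed 5′ to 3′ on the strand of the gene, in lower case with matches to CANNTG, the E-box letters bound by myogenic factors such as MyoD, in capitals. The windows were chr1:53061390-53061639 for Mstn, chr10:128891719-128891968 for Gdf11, chr9:75775115-75775364 for Bmp5 and chr10:79777024-79777273 for Fstl3.
Mstn: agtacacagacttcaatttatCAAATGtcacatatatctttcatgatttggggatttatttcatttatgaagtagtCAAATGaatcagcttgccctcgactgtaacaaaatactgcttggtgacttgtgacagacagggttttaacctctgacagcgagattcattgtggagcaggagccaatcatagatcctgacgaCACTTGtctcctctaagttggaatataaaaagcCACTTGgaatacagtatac
Gdf11: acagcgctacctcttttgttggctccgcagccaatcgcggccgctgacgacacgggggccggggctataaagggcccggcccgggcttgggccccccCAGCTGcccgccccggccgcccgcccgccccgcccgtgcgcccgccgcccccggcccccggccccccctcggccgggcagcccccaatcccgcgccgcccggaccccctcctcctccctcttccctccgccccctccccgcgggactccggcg
Bmp5: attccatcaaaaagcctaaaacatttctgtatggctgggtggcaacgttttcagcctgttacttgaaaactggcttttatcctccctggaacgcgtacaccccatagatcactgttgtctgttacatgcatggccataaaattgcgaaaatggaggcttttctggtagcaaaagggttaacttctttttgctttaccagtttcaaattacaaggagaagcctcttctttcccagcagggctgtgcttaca
Fstl3: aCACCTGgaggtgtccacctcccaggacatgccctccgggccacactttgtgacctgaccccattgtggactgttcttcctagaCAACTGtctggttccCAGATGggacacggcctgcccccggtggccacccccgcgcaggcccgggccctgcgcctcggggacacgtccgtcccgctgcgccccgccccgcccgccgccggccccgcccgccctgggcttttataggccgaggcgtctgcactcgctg
CANNTG reads the same on both strands, and 66.2% of the 32851 promoter windows of this length held it at least once. Mstn had 4 matches, a number reached by 3.8% of windows, Fstl3 had 3, Gdf11 had 1 and Bmp5 had 0. TATAAA, searched on both strands and held by 12.4% of windows, was present once in Mstn, Gdf11 and Fstl3 and not in Bmp5. GTCTG, part of the SMAD-binding element and held on either strand by 42.2% of windows, occurred 2 times in Mstn, 2 times in Fstl3, 1 time in Bmp5 and 0 times in Gdf11. GTAAACA, a FOXO letter run held by 3.2% of windows on either strand, was in none of the 7 member windows. No letter run of these 4 was present in all 3 genes that were lower in the soleus, within the 250 bases shown.

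The 3 antagonists that could be tested were all higher in the soleus. Fst (ENSMUSG00000021765, chr13:114452290-114458951, - strand) lay between 2.73 and 3.86 CPM in WT TA (median 3.15) and between 5.16 and 8.51 CPM in WT soleus (median 6.47), with no overlap. ∆Ig3-MuSK TA spanned 2.22 to 3.75 CPM (median 2.64), and ∆Ig3-MuSK soleus spanned 2.67 to 8.03 CPM (median 5.78). Replicate 8, the library low in tendon and fibroblast markers, gave the soleus minimum, and the other 8 soleus libraries lay above every TA library. Fst was 1.99-fold higher in WT soleus (log2 fold change 1.00 ± 0.12 SE, adjusted p = 5.99e-09) and 2.12-fold higher in ∆Ig3-MuSK soleus (1.08 ± 0.12, adjusted p = 1.19e-09). Without replicate 8 the log2 fold change in ∆Ig3-MuSK was 1.17.

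Fstl3 (ENSMUSG00000020325, chr10:79777272-79782630, + strand) was scarce, with 32 to 129 counts per library. Its level was 1.00 ± 0.30 CPM (SD, n = 9) in WT TA and 1.78 ± 0.47 CPM in WT soleus, and 5 of the 9 soleus libraries lay above every TA library. Soleus exceeded TA by a log2 fold change of 0.83 ± 0.16 (SE; 1.78-fold, adjusted p = 1.50e-05) in WT and 0.57 ± 0.16 (1.48-fold, adjusted p = 0.00202) in ∆Ig3-MuSK. Exons of Prss57, on the opposite strand, overlap 1157 of the 2445 bases of Fstl3 exons, and the strand of reads there is not known.

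Chrdl1 (ENSMUSG00000031283, chrX:143285674-143394262, - strand), a BMP antagonist related to chordin, had 1.60 ± 0.31 CPM (SD, n = 9) in WT TA and 3.05 ± 0.83 CPM in WT soleus. The difference was 1.90-fold in WT (log2 fold change 0.93 ± 0.15 SE, adjusted p = 7.91e-07) and 1.90-fold in ∆Ig3-MuSK (0.93 ± 0.15, adjusted p = 8.69e-07). All 9 soleus libraries exceeded the TA mean in each genotype. Levels of 6 tendon cell markers moved the same way between the muscles: all 6 were called higher in WT soleus, with summed CPM of 131 to 228 in WT TA and 279 to 742 in WT soleus. Of 8 fibroblast markers 5 were higher and 1 lower. In ∆Ig3-MuSK all 6 tendon cell markers were again higher, but only 2 fibroblast markers were higher and 1 was lower. Other lists were higher in WT soleus too: 5 of 6 endothelial, 5 of 6 smooth muscle and pericyte and 5 of 5 adipocyte markers, with 0 lower. In ∆Ig3-MuSK these counts were 4, 1 and 5. The part of these markers in the muscle difference of the antagonists was not tested.

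Grem1 (ENSMUSG00000074934, chr2:113746164-113758646, - strand) was at the limit of detection. It had 1 to 9 counts per library in WT TA, 1 to 8 in ∆Ig3-MuSK TA, 0 to 3 in WT soleus and 0 to 4 in ∆Ig3-MuSK soleus, and it did not pass the count filter. With 0 counts in 5 WT soleus libraries, the data allow levels of up to 0.0573 to 0.0647 CPM there (3 counts, counting error alone). Without the filter it was called lower in WT soleus (36 counts in the 9 TA libraries and 7 in the 9 soleus libraries; log2 fold change -1.95, adjusted p = 0.00872), and not in ∆Ig3-MuSK (-0.84, adjusted p = 0.276).

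Bmp2 (ENSMUSG00000027358, chr2:133552159-133562885, + strand), an osteogenic BMP, had 1.81 ± 0.38 CPM (SD, n = 9) in WT TA and 2.67 ± 0.42 CPM in WT soleus. It was higher in the soleus by a log2 fold change of 0.55 ± 0.11 (SE; adjusted p = 3.11e-05) in WT and 0.45 ± 0.11 (adjusted p = 0.000548) in ∆Ig3-MuSK. Bmp4 (ENSMUSG00000021835, chr14:46383520-46390669, - strand), its nearest relative, had 4.41 ± 0.62 CPM in WT TA and 4.37 ± 0.86 CPM in WT soleus. Its log2 fold change was -0.01 in WT, with a 95% confidence interval from -0.27 to 0.25, and -0.19 in ∆Ig3-MuSK, from -0.44 to 0.07. These bounds are the differences that the spread between libraries still allows.

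Bmp6 (ENSMUSG00000039004, chr13:38345107-38500302, + strand) is known outside muscle as the BMP that drives hepcidin. It had 13.7 ± 2.12 CPM (SD, n = 9) in WT TA and 17.7 ± 2.18 CPM in WT soleus, a log2 fold change of 0.36 ± 0.09 (SE; 1.28-fold, adjusted p = 0.000487). In ∆Ig3-MuSK the means were 15.8 ± 2.40 CPM in the TA and 16.0 ± 1.53 CPM in the soleus, with a log2 fold change of 0.01 (95% confidence interval from -0.17 to 0.19, adjusted p = 0.905). The difference between these 2 values is the interaction given below, which did not pass the threshold.

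**Figure D3:**
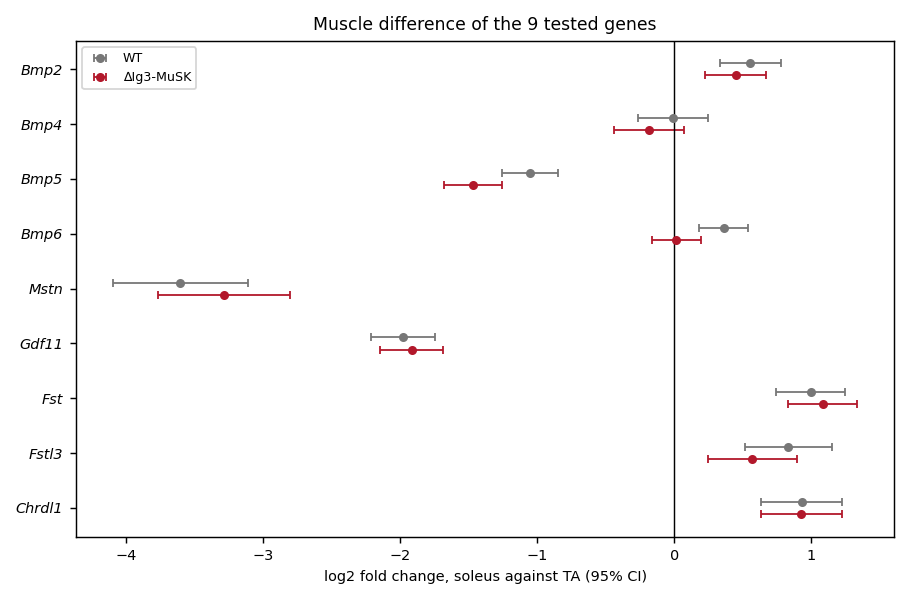
Log2 fold change of soleus against TA for the 9 tested members (x axis; points: estimate, bars: 95% confidence interval) in WT and ∆Ig3-MuSK. Mstn (-3.61 in WT), Gdf11 (-1.98) and Bmp5 (-1.06) lie to the left of 0, Fst (1.00), Chrdl1 (0.93), Fstl3 (0.83) and Bmp2 (0.55) to the right, and the interval of Bmp4 spans 0 in both genotypes.

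Ranges of WT TA and WT soleus did not overlap for 4 of the 9 tested members (Mstn, Gdf11, Bmp5 and Fst), beside 28.3% of all genes tested. In ∆Ig3-MuSK they did not overlap for 3 of 9 (Mstn, Gdf11 and Bmp5), beside 29.4% of all genes. All 8 calls in WT and all 7 in ∆Ig3-MuSK held in each fit that left out 1 of the 36 libraries.

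Within the soleus, Mstn varied more than any other tested member relative to its mean. In WT soleus its levels went with those of fast fiber markers by Pearson's r, while Spearman's rho did not pass after adjustment. In ∆Ig3-MuSK soleus neither passed, and whether the relation differs between the genotypes was not tested. The relation was chosen after the values were seen, and the adjustment over 4 groups does not cover that choice. WT soleus replicates 1 and 2, which had the highest fast marker sums of their group, also had its highest Mstn (3.21 and 2.79 CPM). Across the 9 WT soleus libraries the log2 levels correlated with Pearson's r = 0.892 (exact permutation test over pairings, 2-sided, p = 0.00186, adjusted over 4 groups 0.00744) and Spearman's rho = 0.80 (exact p = 0.0138, adjusted 0.0552). Leaving out the 2 libraries farthest from the median fast marker sum gave r = 0.68. In ∆Ig3-MuSK soleus r was 0.666 (exact permutation p = 0.0613, adjusted 0.123; rho = 0.533, exact p = 0.148, adjusted 0.296) and r without the 2 farthest libraries was 0.739.

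In the TA, where fast markers summed to between 79151 and 104900 CPM, the same relation was not seen at this number of libraries. Pearson's r was 0.397 in WT TA (exact permutation p = 0.29, adjusted 0.387; rho = 0.367, exact p = 0.336, adjusted 0.448) and 0.094 without the 2 farthest libraries. In ∆Ig3-MuSK TA it was 0.20 (exact permutation p = 0.611, adjusted 0.611; rho = 0.033, exact p = 0.948, adjusted 0.948) and -0.215 without them.

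**Figure D4:**
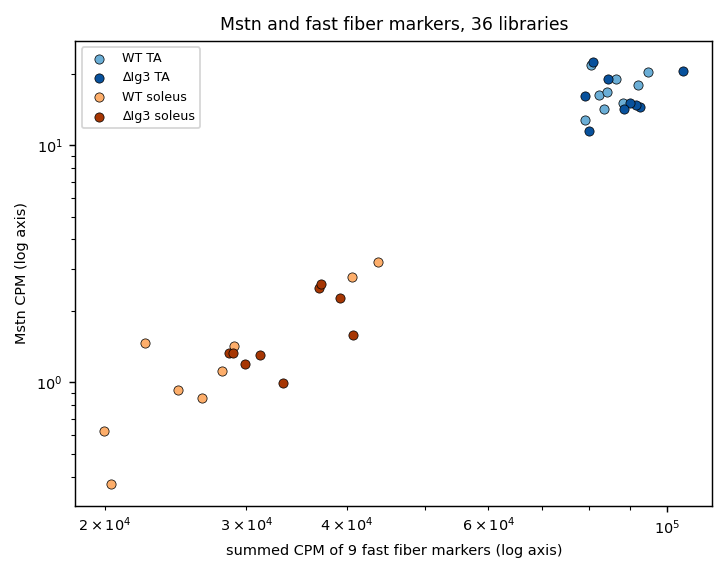
Mstn CPM against the summed CPM of 9 fast fiber markers in the 36 libraries (both axes logarithmic), colored by group. WT soleus replicates 1 and 2 lie at the upper right end of the WT soleus libraries (Mstn 3.21 and 2.79 CPM). ∆Ig3-MuSK soleus replicate 8 lies near them on the x axis (40711) with Mstn at 1.58 CPM. The TA libraries lie at 79151 or more on the x axis.

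Comparison of the genotypes asked whether loss of the BMP-binding domain of MuSK went with altered ligand or antagonist transcripts in either muscle. None of the 9 tested members was called in the TA or in the soleus by edgeR's quasi-likelihood test, by DESeq2 or by limma-voom. Over all genes the quasi-likelihood test called 3 of 20075 in the TA (0.0149%) and 185 of 19439 in the soleus (0.952%). DESeq2 called 237 genes in the TA (1.12% of those with an adjusted p) and 489 in the soleus (2.34%), and limma-voom called 150 (0.747%) and 653 (3.36%). Leaving out 1 library moved the soleus count by the quasi-likelihood test between 22 (without WT replicate 5) and 602 (without WT replicate 1), with 0 members called each time. At an unadjusted p under 0.05 there was 1 member of 9 in the TA (Fst), beside 24.1% of all genes, and 3 of 9 in the soleus (Fstl3, Bmp5 and Bmp6), beside 18.5% of all genes. The ranges of the genotypes overlapped for all 9 tested members in both muscles, whereas they did not overlap for 0.0299% of genes (TA) and 0.0772% (soleus). Median log2 fold changes of the members were -0.07 (TA) and -0.15 (soleus), beside -0.0032 and -0.0017 over all genes.

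Among ligands in the TA, Bmp6 and Bmp4 had the largest estimates. Bmp6 lay between 10.3 and 16.1 CPM in WT TA (median 14.6) and between 11.7 and 20.1 CPM in ∆Ig3-MuSK TA (median 15.7), with a log2 fold change of 0.20 ± 0.10 (SE, adjusted p = 0.207). In total, 8 of 9 ∆Ig3-MuSK libraries exceeded the WT mean. Bmp4 gave 0.20 ± 0.10 (adjusted p = 0.227). Estimates for Mstn (-0.05, 95% confidence interval from -0.30 to 0.19), Gdf11 (-0.11, from -0.34 to 0.11), Bmp2 (-0.08, from -0.32 to 0.17) and Bmp5 (0.11, from -0.05 to 0.26) were smaller.

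Fst was the antagonist with the lowest p in the TA. It lay between 2.73 and 3.86 CPM in WT (median 3.15) and between 2.22 and 3.75 CPM in ∆Ig3-MuSK (median 2.64), and 6 of 9 ∆Ig3-MuSK libraries lay below the whole WT range. Its log2 fold change was -0.24 ± 0.09 (SE; unadjusted p = 0.0177, adjusted p = 0.165; exact permutation test of log2 CPM, 2-sided, p = 0.0157), a difference that did not pass after adjustment. Leaving out 1 library moved the estimate between -0.31 and -0.21. Fstl3 gave -0.17 (95% confidence interval from -0.50 to 0.16) and Chrdl1 -0.07 (from -0.32 to 0.19).

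In the soleus the lowest p belonged to Fstl3. Its level lay between 1.14 and 2.59 CPM in WT (median 1.70) and between 0.91 and 1.64 CPM in ∆Ig3-MuSK (median 1.36), and all 9 ∆Ig3-MuSK libraries lay below the WT mean of 1.78. The log2 fold change was -0.44 ± 0.16 (SE; unadjusted p = 0.00964, adjusted p = 0.133; exact permutation test, 2-sided, p = 0.0214). Bmp5 gave -0.32 ± 0.13 (adjusted p = 0.182) and was below the WT mean in 7 of 9 ∆Ig3-MuSK libraries. Bmp6 gave -0.15 ± 0.07 (adjusted p = 0.234) and was below it in 8 of 9.

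Markers of other cell types moved in both directions beside these 3 estimates. Fibroblast markers, all 8 of them with estimates below 0 and 0 called, summed to 638 to 2088 CPM in WT soleus and 336 to 1038 CPM in ∆Ig3-MuSK soleus (difference of mean log2 sums -0.65, exact permutation test, 2-sided, p = 0.0121). The 6 tendon cell markers, all with estimates below 0 and 0 called, summed to 279 to 742 CPM and 24.4 to 496 CPM (difference -0.91, exact permutation p = 0.019). Without ∆Ig3-MuSK soleus replicate 8 the differences were -0.53 for fibroblast markers (exact permutation p = 0.0259) and -0.50 for tendon cell markers (exact permutation p = 0.0385). The 9 fast fiber markers, all with estimates above 0 and 0 called, summed to 19973 to 43783 CPM and 28523 to 40711 CPM (difference 0.30, exact permutation p = 0.0625). Estimates were above 0 also for all 6 Schwann cell markers (median log2 fold change 0.21) and all 5 adipocyte markers (0.57), with 0 called. They were below 0 for all 6 endothelial markers (median -0.12) and all 6 macrophage and leukocyte markers (-0.38), with 0 called. Of 6 smooth muscle and pericyte markers 5 had estimates below 0 (median -0.22), with 1 called. None of the markers on these lists was at 0 in a whole group. With the fibroblast sum as a covariate, the log2 fold change of Fstl3 was -0.11 (adjusted p = 0.826), that of Bmp5 -0.07 (adjusted p = 0.871) and that of Bmp6 -0.16 (adjusted p = 0.473). With the fast fiber sum as a covariate they were -0.16, -0.15 and -0.14. The fibroblast sum itself differed by genotype, so a fit with it cannot separate genotype from marker level. With either covariate fewer genes were also called over all genes, as given below. The part of these cell types in the 3 estimates was not tested. Leaving out 1 soleus library moved the Fstl3 estimate between -0.51 and -0.36, with an adjusted p from 0.0521 to 0.252.

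The remaining members had wide or small intervals in the soleus. Mstn had a log2 fold change of 0.24 with a 95% confidence interval from -0.42 to 0.91, the widest of the 9, and the sign turned with either covariate (-0.31 with the fibroblast sum, -0.18 with the fast fiber sum). Leaving out 1 library moved it between 0.11 (without WT replicate 7) and 0.49 (without WT replicate 1), and limma-voom gave 0.54. Its relation to fast fiber markers in these libraries is given above. Gdf11 gave -0.06 (from -0.30 to 0.17), Bmp4 0.01 (from -0.30 to 0.32), Bmp2 -0.20 (from -0.41 to 0.02), Fst -0.16 (from -0.46 to 0.14) and Chrdl1 -0.08 (from -0.42 to 0.26). The sign also turned for Fst with the fibroblast sum as a covariate (0.038) and for Chrdl1 with the fibroblast sum (0.28) and the fast fiber sum (0.15). Without replicate 8 of ∆Ig3-MuSK soleus the Fst estimate was -0.07 and the Chrdl1 estimate -0.01.

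Whether the genotype difference itself differed between the muscles was tested as an interaction. No member and 0 of 20841 genes (0%) passed by edgeR's quasi-likelihood test, with 2 members (Bmp5 and Bmp6) and 24.9% of all genes at an unadjusted p under 0.05. Bmp5 had an estimate of 0.11 (TA) and -0.32 (soleus), and their difference was -0.41 ± 0.14 (SE, adjusted p = 0.106). Bmp6 had 0.20 (TA) and -0.15 (soleus), a difference of -0.35 ± 0.12 (adjusted p = 0.110). Bmp5 passed by DESeq2 (adjusted p = 0.04998) and by limma-voom with quality weights (adjusted p = 0.0432), fits that called 1099 (10.8% of those with an adjusted p) and 1352 genes (6.49%), while Bmp6 passed by neither. The call on Bmp5 thus changes with the choice of test. For Mstn the difference was 0.32, with a 95% confidence interval from -0.35 to 0.98.

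**Figure D5:**
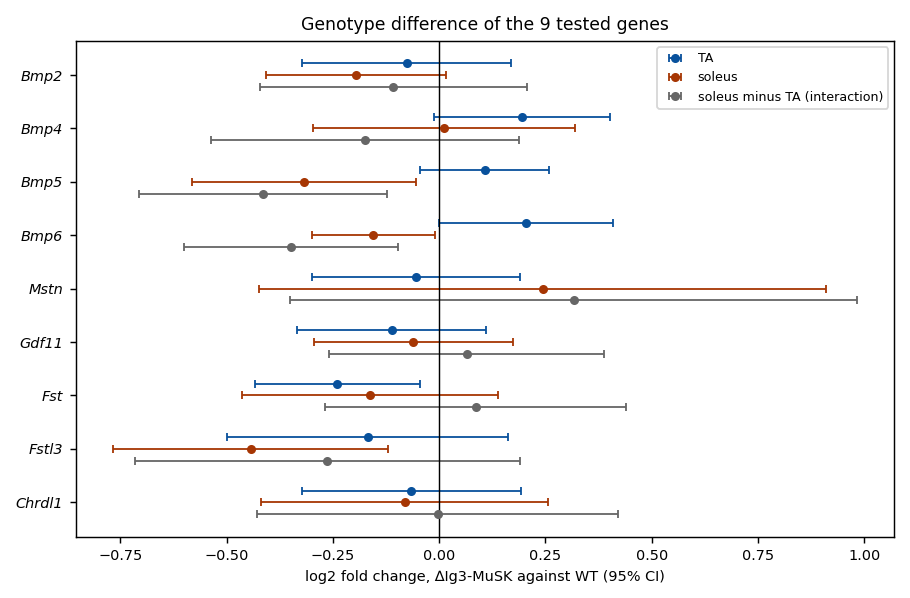
Log2 fold change of ∆Ig3-MuSK against WT for the 9 tested members within each muscle and as soleus minus TA (x axis; points: estimate, bars: 95% confidence interval). Intervals that leave out 0, before adjustment for all genes, are those of Fst in the TA (-0.24), of Fstl3 (-0.44), Bmp5 (-0.32) and Bmp6 (-0.15) in the soleus and of Bmp5 (-0.41) and Bmp6 (-0.35) for the difference; that of Bmp6 in the TA touches 0.

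Other genes of the pathway were counted on 6 lists. The lists held 15 other BMP and GDF ligand genes, 8 activin and TGF-β ligand genes and 22 other secreted antagonists. They also held 7 proteases that process ligands or antagonists, 18 receptors and co-receptors and 15 SMADs and target genes. Of these 85 genes, 69 were tested in the TA and 0 were called between genotypes, beside 0.0149% of all genes. In the soleus 71 were tested and 1 was called, beside 0.952% of all genes. It was the endothelial co-receptor endoglin (Eng), which fell from 57.1 ± 9.86 to 42.7 ± 5.49 CPM (SD, n = 9 each; log2 fold change -0.43 ± 0.10 SE, adjusted p = 0.0364). Endothelial markers, 6 genes with 0 called and all estimates below 0, summed to 291 to 388 CPM in WT soleus and 257 to 349.6 CPM in ∆Ig3-MuSK soleus (exact permutation p = 0.0158), and their part in the Eng difference was not tested.

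Between WT muscles, 28 of 74 tested genes of the 6 lists were higher and 21 lower in the soleus, beside 30.2% higher and 27.3% lower over all genes. In ∆Ig3-MuSK, 26 were higher and 19 lower, beside 28.5% and 27.6%. Of 10 tested other BMP and GDF ligands, 5 were higher and 3 lower in the soleus, among them Gdf1 (log2 fold change -1.93, a gene that lies inside Cers1 on the same strand), Bmp8b (-0.52), the stress-induced Gdf15 (2.02) and Bmp3 (1.098). Of 6 activin and TGF-β ligands, 4 were higher, including Tgfb3 (0.92), Tgfb1 (1.06) and the activin A subunit Inhba (1.28), and 2 were lower, including Inha (-1.41). Of 18 other antagonists, 6 were higher, such as Crim1 (1.12), Nbl1 (0.74) and Twsg1 (0.50), and 5 were lower. Direction among antagonists was therefore mixed beyond the 3 tested members.

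Receptors and intracellular genes were split as well. Of 18 receptors and co-receptors 7 were higher and 7 lower in WT soleus: the type I BMP receptor Bmpr1b (1.53), Musk (1.83) and Tgfbr2 (0.83) were higher, and Acvr1b, a type I receptor for activin and myostatin, fell from 61.0 ± 12.0 to 15.8 ± 2.44 CPM (-1.95). Of 7 proteases 3 were higher, Pcsk6 (1.17), Pcsk5 (1.44) and Tll2 (2.09, at 0.06 and 0.27 CPM). Of 15 SMADs and targets 3 were higher, including the ubiquitin ligases Smurf1 (0.83) and Fbxo30 (0.85), and 4 were lower, including the inhibitory Smad6 (-0.66) and the BMP effector Smad9 (-1.32). Median log2 fold changes of the lists in WT soleus against TA ran from -0.0027 for the proteases to 0.95 for the activin and TGF-β ligands.

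The genes whose levels followed each member most closely were ranked over the 36 libraries after the 4 group means had been taken out, among 15459 genes. Mstn went with Pvalb, the calcium buffer of fast fibers (Pearson's r = 0.871), Gm44646 (0.854) and Phkb, a subunit of phosphorylase kinase (0.842). Bmp6 went with Myh2, the IIa myosin heavy chain (0.699), Zdhhc23 (0.676) and Pank1 (0.67). Chrdl1 went with the matrix genes Fbln1 (0.781) and Srpx (0.781) and with Slc5a3 (0.762). Bmp5 went with Gm26903 (0.845), which overlaps it, and with Slc5a3 (0.809) and Colec12 (0.806). These values describe the libraries and share their scaling, so no p is attached.

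The other members had their own nearest genes. Fstl3 went with Ston1 (0.816), Sept8 (0.811) and Sept9 (0.801), and Bmp4 with Galnt15 (0.753), Palm (0.72) and Hoxb3 (0.691). Fst went with Fgf7 (0.725), Tigd4 (0.717) and Net1 (0.712), while Spearman's rho for these was lower (0.517, 0.448 and 0.526). Bmp2 went with Wdr91 (0.684), Ccnd2 (0.66) and Itga5 (0.653). Gdf11 had the lowest values of the 9, among them those for Zfp651 (0.583) and Dcaf5 (0.56).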

How the data were processed

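RNA-seq of whole TA and soleus was counted per gene in 36 libraries (9 per group). Per the labels and the paper's methods, the authors trimmed reads with Trimmomatic, aligned them to GRCm38 (mm10) with GSNAP, and counted reads with htseq-count (HTSeq). The deposited values are whole-number counts per Ensembl gene ID, without normalization. The libraries were non-stranded, so reads in exons shared by genes on opposite strands cannot be assigned by strand, and the counting mode and annotation release are not given in the sources used here. Symbols, exon lengths and positions came from GENCODE M21 (GRCm38), with symbols for 51719 of 51912 IDs. Columns were assigned to libraries by their labels, and replicate numbers are those of the labels. The members and gene lists were chosen with earlier results of these data known.

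Genotypes were compared within each muscle (18 libraries), and muscles and the interaction in 1 fit over 36 libraries, with edgeR 4.0.16 (R 4.3.3): filterByExpr (minimum count 10, minimum total count 15), TMM factors, glmQLFit and glmQLFTest, no covariates. Calls needed a Benjamini-Hochberg adjusted p-value under 0.05 over all genes tested and at least 1.2-fold (no minimum for the interaction). The standard error is the log2 fold change divided by the square root of F. CPM used TMM factors over all 36 libraries, and likeness used log2 CPM with a prior count of 2. The paper states 1 muscle per animal, which was taken to hold within each group. In each genotype 8 label numbers occur on both a TA and a soleus library. The sources used here do not say whether a shared number is 1 animal, and the main fits took the 36 libraries as independent. No pair of libraries within a muscle agreed within sampling noise (smallest chi-square per degree of freedom 9.88). The tests were run first on counts drawn from the real means with known changes. Named genes were all members, up to 4 called genes of each pathway list by smallest adjusted p, and the 3 genes most like each member with a mean of at least 1 CPM; 1 gene that this rule names is not reported here. Myh4, Myh7 and Musk served as checks.

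Other settings tried were DESeq2 1.42.0, alone or after a filter of 0.5 CPM in at least 1 library, limma-voom with quality weights (limma 3.58.1), robust quasi-likelihood, RLE factors, no count filter, other fold minimums, other sample sets, blocks by replicate or label number and each library left out. Covariates of summed fast fiber or fibroblast markers and marker sums without ∆Ig3-MuSK soleus replicate 8 were added after the data were seen. Relative counting error is largest for Grem1, followed by Mstn in the soleus (from 22 counts) and Fstl3 (from 32 counts), and 0 columns of other samples were present.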

Additional observations from a re-analysis of the deposited data

Results flagged for a closer look

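Outlying libraries were looked for with Dixon's test in 88 sets of 9 libraries (10 members and 12 marker or gene lists in 4 groups), of which 10 passed its 95% limit; chance gives about 1 in 20. Of the 40 sets of a single member, 5 passed. In ∆Ig3-MuSK TA these were Bmp5 in replicate 1, the lowest at 9.35 CPM with the next at 12.2, Fst in replicate 7, the highest at 3.75 CPM with the next at 2.94, and Grem1 in replicate 5, the highest at 0.124 CPM. In WT TA it was Fstl3 in replicate 9, the highest at 1.68 CPM with the next at 1.097. In ∆Ig3-MuSK soleus it was Bmp6 in replicate 4, the highest at 19.6 CPM with the next at 16.5.

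WT TA replicate 9 was also the highest of its group in the summed fibroblast markers (1180 CPM) and adipocyte markers (71.6 CPM). The remaining sets were adipocyte markers in ∆Ig3-MuSK TA replicate 4 (67.7 CPM) and in WT soleus replicate 1 (273 CPM), and macrophage and leukocyte markers in WT soleus replicate 7 (88.3 CPM). Without WT TA replicate 9 the log2 fold change of Fstl3 between genotypes in the TA was -0.033 (adjusted p = 0.890). Without ∆Ig3-MuSK TA replicate 1 that of Bmp5 was 0.16 (adjusted p = 0.179), and without ∆Ig3-MuSK TA replicate 7 that of Fst was -0.31 (adjusted p = 0.128). Without ∆Ig3-MuSK soleus replicate 4 that of Bmp6 in the soleus was -0.20 (adjusted p = 0.140). Their part in the results was otherwise not tested.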

How the results depend on the processing

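Members called between genotypes stayed at 0 in each of 11 other settings per muscle, covariates included, and in each of 18 fits per muscle that left out 1 library. Counts of all genes called moved. In the TA, 3 genes became 237 (DESeq2), 238 (DESeq2 with the CPM filter), 150 (limma-voom), 10 (no count filter) and 692 (1 fit over 36 libraries), and in the soleus 185 became 489, 486, 653 (limma-voom) and 312 (1 fit). With summed fast fiber or fibroblast markers as a covariate, 4 and 14 genes were called in the soleus. For the interaction, 0 genes became 1099 (DESeq2) and 1352 (limma-voom), each with 1 member, Bmp5. Among the members, DESeq2 gave an adjusted p for Bmp5, Bmp6 and Mstn only in this comparison. At least 2-fold, 3239 genes and 3 members were called between muscles in WT, and 3216 and 4 in ∆Ig3-MuSK. Replicate numbers shared by WT and ∆Ig3-MuSK mark different label numbers (correlations of deviations from -0.279 to 0.394); with them as a replicate block, TA calls were 0 and soleus calls 347, with 0 members. Label numbers shared by TA and soleus gave correlations from 0.0256 to 0.284, over 0.1 in 2 of 8 WT and 5 of 8 ∆Ig3-MuSK pairs; as a block they left 8 and 7 members called between muscles and called 9 genes and 0 members for the interaction. Leaving out 1 library gave 3 to 9 genes in the TA, 22 to 602 in the soleus (602 without WT replicate 1, 22 without WT replicate 5) and 0 to 1450 for the interaction (1450 without WT TA replicate 9, 982 without ∆Ig3-MuSK TA replicate 3, 99 without WT soleus replicate 1), while members called stayed the same. The causes were not tested. Depth limits Grem1, and spread between libraries limits Mstn in the soleus.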

Other observations

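Gene lists that belong to no comparison above were also counted. Of 13 circadian clock genes, 1 was called higher and 0 lower in ∆Ig3-MuSK TA, and 7 were called higher and 2 lower in ∆Ig3-MuSK soleus. Their summed CPM was higher in ∆Ig3-MuSK by 0.33 on the log2 scale in the TA (2-sided exact permutation p = 0.000165) and by 0.40 in the soleus (exact p = 8.23e-05). Of 9 immediate early genes 0 were called between genotypes in either muscle, with differences of the log2 sum of 0.12 (exact p = 0.389) in the TA and -0.32 (exact p = 0.0559) in the soleus.

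Tendon cell markers differed between genotypes by -0.33 on the log2 scale of their sum in the TA (exact permutation p = 0.0957), with 0 of 6 called. Of 6 smooth muscle and pericyte markers 1 was called lower in ∆Ig3-MuSK soleus. The median log2 fold change of the 6 was -0.22, while their sum differed by -0.029 (exact p = 0.575). Sums of slow fiber markers (exact p = 0.961), Schwann cell markers (exact p = 0.239), adipocyte markers (exact p = 0.367), satellite cell markers (exact p = 0.557) and macrophage and leukocyte markers (exact p = 0.0907) did not pass in the soleus, with 0 called on each list. In the TA 0 markers on any of these lists were called.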
